A study of Mus musculus with 6 samples.

Results

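The genes described here are 38 members of fatty acid oxidation and of the PPAR program in mouse intestinal epithelial cells, listed by name for their roles, with earlier results of these data known. Each was read from the probe set paired with that gene alone that had the highest mean over the 6 arrays, and 35 of the 38 had one, out of 18193 genes measured. Acsl1, Cyp4a10 and Ucp2 had none and are not analysed here on their own. The study set cells of 3 caspase-8 deficient mice, which carry the floxed casp8 gene and the villinCre transgene, against cells of 3 floxed control mice, which carry the floxed gene without villinCre. All 6 animals were C57BL/6, and each gave 1 array. Cre under the villin promoter acts in the gut epithelium and not in the other cells of the gut wall. The labels give neither the age and sex of the animals nor the segment of gut.

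Cells break fatty acids down by beta-oxidation, in which an activated acyl-CoA is shortened again and again to release acetyl-CoA. Mitochondria do this for long, medium and short chains after the carnitine shuttle has carried the acyl group across their membranes, while peroxisomes take very long and branched chains. PPARalpha, a nuclear receptor that fatty acids activate, pairs with RXR and switches on genes of both compartments as well as the Cyp4a omega-hydroxylases, and enterocytes, which absorb dietary fat, are among the cells that use it.

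Values are log2 expression as deposited, so that a difference of 1 means a doubling, and each difference is caspase-8 deficient minus floxed control. Of the 35 members, 0 passed limma at an adjusted p of 0.05 in either direction, where 0.775% of all 18193 genes were called, 0.308% higher and 0.467% lower. The smallest adjusted p among the members was 0.123, that of Acadm. At an unadjusted p under 0.05, 12 members were higher (34.3%, against 8.12% of all genes) and 1 was lower (against 8.53%). The difference was above 0 in 31 members (88.6%, against 53.9% of all genes), and below 0 in Cpt1a, Eci2, Pank1 and Ppara. In 11 members (31.4%) every deficient array lay above every control array, against 11.5% of all genes, and in 1, Pank1, every deficient array lay below, against 11.2%. All but Cyp4a14 and Acot1 were brighter than the median gene, and among the 9097 genes at or above that median the shares were 14.5% with the deficient arrays above and 48.2% with a difference above 0. The median difference was 0.23 over the members and 0.02 over all genes.

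Deficient replicate 3 had the highest level of 27 of the 35 members, and the array with the lowest level was most often control replicate 3, in 16 members. Of all genes, 20.3% were highest on deficient replicate 3. Relative to the control mean, the median member stood at 0.12, 0.16 and 0.39 on deficient replicates 1, 2 and 3, and at 0.002, 0.08 and -0.09 on control replicates 1, 2 and 3. Without deficient replicate 3, 26 members had a difference above 0, the median difference fell to 0.13, and 12 members had groups that did not overlap with the deficient arrays above, against 16.3% of all genes in that smaller set. With each of the 6 arrays left out in turn, the number of members past the threshold stayed at 0.

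**Figure D1:**
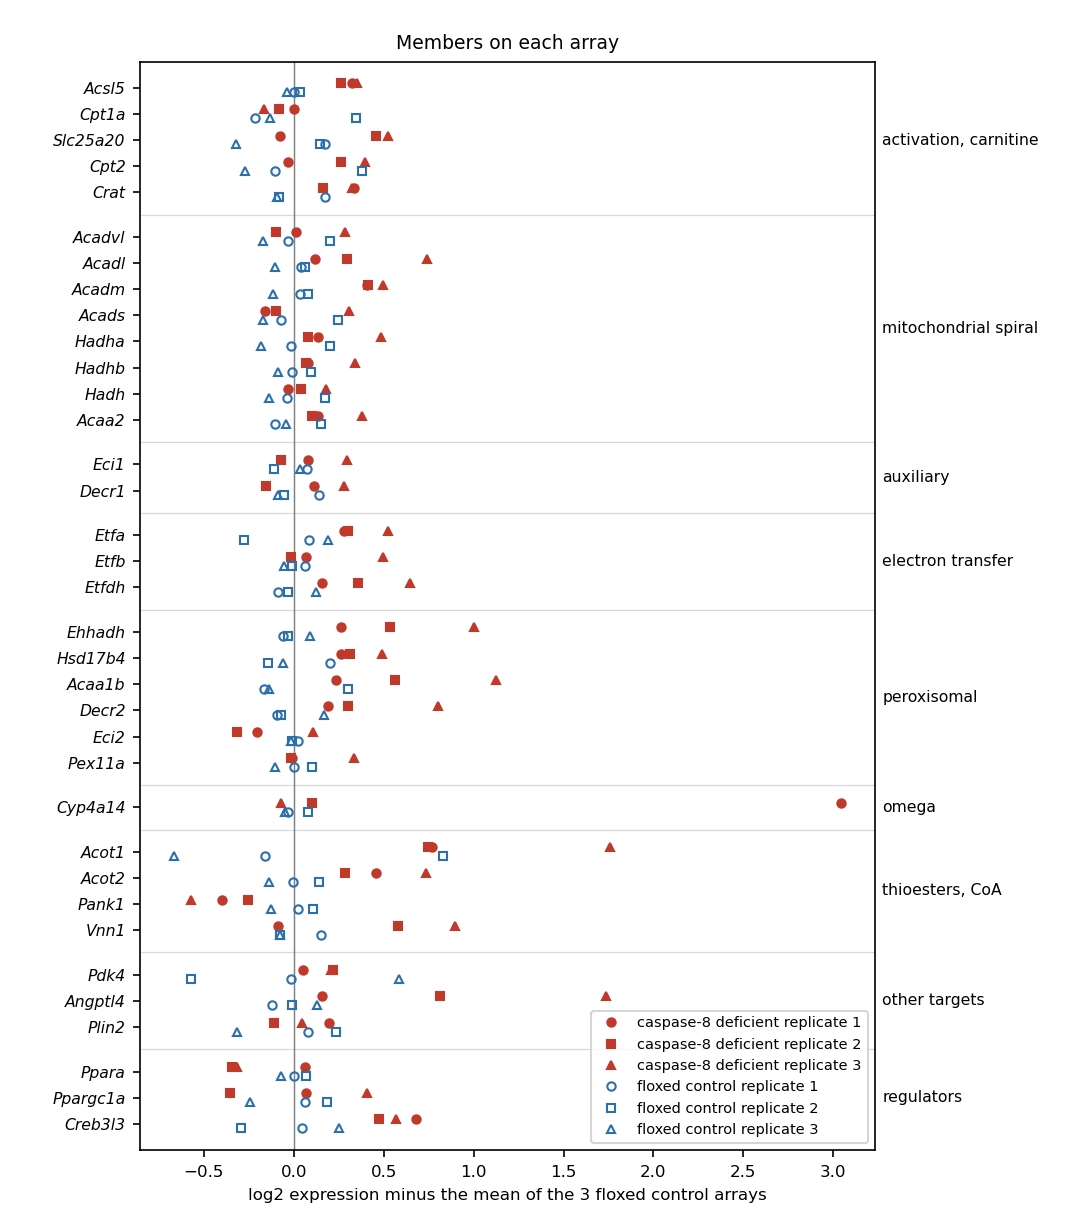
Log2 expression of the 35 members on each array, minus the mean of the 3 floxed control arrays, with members grouped by role from top to bottom. Filled red symbols are caspase-8 deficient arrays and open blue symbols floxed control arrays; deficient replicate 3 (triangle) was highest in 27 of 35 members, and Cyp4a14 stood 3.05 above the control mean on deficient replicate 1 alone.

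Facts of the arrays that bear on these values are given here once. The correlation between arrays across genes was 0.984 to 0.995 within deficient arrays, 0.990 to 0.994 within controls and 0.979 to 0.991 between groups. The control probe sets for the 3′ end of Gapdh read above those for its 5′ end, a gap that widens as RNA degrades, by 0.21 to 0.29 on the deficient arrays and by 0.68, 0.93 and 0.22 on control replicates 1, 2 and 3. Deficient replicate 1 stood apart: 211 genes exceeded all 5 other arrays there by more than 1 log2 unit, against 1 to 33 genes on each of the others, and 1 of the 35 members, Cyp4a14, was among them. The mean of 20 measured enterocyte markers was 12.19 to 12.24 on deficient arrays and 11.89 to 12.05 on controls, and 1 of the 20 passed, higher. Their median difference was 0.25, against 0.23 over the members, so a shift of that size was not particular to the members. Nor was separation of the groups: in most of these enterocyte markers every deficient array lay above every control array. In Mep1a every deficient array lay below, and in the rest the groups overlapped. The mean of 11 proliferation markers of the crypt was 8.56 to 8.79 on deficient arrays and 8.95 to 9.34 on controls, with 0 past the threshold. Of 5 Paneth and 8 goblet cell markers, 5 and 4 passed, all lower, with list means of 9.60 to 9.91 and 10.59 to 10.70 on deficient arrays against 11.51 to 12.00 and 11.38 to 11.51 on controls. The adipocyte list of 7 genes averaged 4.59 to 4.61 on deficient arrays and 4.20 to 4.52 on controls, and the liver list of 8 genes 3.56 to 3.83 and 3.58 to 3.71. The smooth muscle and fibroblast list of 10 genes averaged 4.38 to 5.25 on deficient arrays and 4.20 to 4.94 on controls, and the leukocyte list of 8 genes 6.48 to 6.78 and 6.50 to 7.15, with 0 past the threshold in all 4. In bulk cells, more cells of a type and more RNA per cell cannot be told apart, and the part of these shifts in the values below was not tested.

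The letters to which PPAR and RXR bind as a pair are a direct repeat of AGGTCA with 1 base between the copies. The windows from 250 bases before to 50 bases after the annotated starts (RefSeq, GRCm38.p6) were found for 28 of the 35 members, in 30 windows. The repeat, AGGTCA then any base then AGGTCA, searched on both strands, was in 0 of the 30 with at most 1 mismatch and in 4 with at most 2 mismatches among its 12 fixed letters (13.3%), against 0.554% and 3.86% of all 32851 windows. A single AGGTCA, which such a repeat can contain, was in 5 of the 30 windows, or 16.7%, against 16.3% of all. These are matches of letters and not shown binding sites. The 4 windows are printed because they hold the closest match among the members. Creb3l3 and Etfa are among the 11 of 35 members whose deficient arrays all lay above the controls, while the groups of Plin2 and Slc25a20 overlapped. A relation between the matches and the differences was not tested. Capitals mark the match, at positions -209 to -197 relative to the start in Creb3l3 (chr10:81092542-81092841, minus strand), -77 to -65 in Etfa (chr9:55512194-55512493, minus strand), -225 to -213 in Plin2 (chr4:86670010-86670309, minus strand) and 7 to 19 in Slc25a20 (chr9:108661886-108662185, plus strand). In Etfa and Plin2 the repeat reads on the opposite strand.
Creb3l3: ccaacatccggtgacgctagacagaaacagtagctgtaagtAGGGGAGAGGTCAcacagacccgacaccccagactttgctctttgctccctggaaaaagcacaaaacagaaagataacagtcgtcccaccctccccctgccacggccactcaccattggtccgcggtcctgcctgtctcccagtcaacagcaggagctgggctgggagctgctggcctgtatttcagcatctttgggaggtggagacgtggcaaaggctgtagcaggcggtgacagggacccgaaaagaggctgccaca
Etfa: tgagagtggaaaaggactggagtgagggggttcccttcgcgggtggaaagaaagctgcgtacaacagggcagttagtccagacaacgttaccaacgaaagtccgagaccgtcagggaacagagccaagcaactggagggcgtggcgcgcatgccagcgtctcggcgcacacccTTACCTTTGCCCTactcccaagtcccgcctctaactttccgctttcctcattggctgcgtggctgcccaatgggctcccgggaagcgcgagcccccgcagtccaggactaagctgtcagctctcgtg
Plin2: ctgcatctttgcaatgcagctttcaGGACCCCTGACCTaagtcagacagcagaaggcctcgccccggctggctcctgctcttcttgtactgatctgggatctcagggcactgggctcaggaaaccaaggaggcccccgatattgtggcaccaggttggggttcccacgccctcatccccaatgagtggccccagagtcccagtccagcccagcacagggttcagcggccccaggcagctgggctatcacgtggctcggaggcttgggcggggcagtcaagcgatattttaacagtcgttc
Slc25a20: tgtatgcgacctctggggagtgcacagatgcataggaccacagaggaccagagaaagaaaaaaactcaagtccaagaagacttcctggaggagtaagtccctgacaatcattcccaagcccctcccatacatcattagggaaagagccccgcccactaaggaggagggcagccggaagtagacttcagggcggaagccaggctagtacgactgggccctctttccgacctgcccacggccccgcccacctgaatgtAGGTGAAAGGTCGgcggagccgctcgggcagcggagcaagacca

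Fatty acids enter oxidation by activation to acyl-CoA and the carnitine shuttle. Acsl5, an acyl-CoA synthetase of the intestine, read 13.05, 12.99 and 13.08 on the deficient arrays, against 12.73, 12.76 and 12.69 on the controls. The groups were apart with a small spread within each, and the log2 difference was 0.31 (SE 0.10, limma adjusted p = 0.201). Crat, which moves short acyl groups to carnitine, read 8.25, 8.08 and 8.24 on deficient arrays and 8.09, 7.84 and 7.82 on controls, a difference of 0.27 with groups that just overlapped. Slc25a20, the carnitine-acylcarnitine translocase whose window is printed above, averaged 10.34 ± 0.33 on deficient arrays and 10.04 ± 0.28 on controls (SD, n = 3 each), and Cpt2, which rebuilds acyl-CoA inside the mitochondrion, 10.30 ± 0.22 and 10.09 ± 0.34. Both overlapped. Cpt1a, the gate of the shuttle that malonyl-CoA inhibits, read 9.50, 9.41 and 9.33 on deficient arrays and 9.28, 9.85 and 9.37 on controls. Its difference of -0.08 had a 95% confidence interval from -0.46 to 0.29, and control replicate 2 was the highest of the 6 arrays. The other Cpt1a probe sets differed by -0.38 and -0.18.

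Inside the mitochondrion, acyl-CoA dehydrogenases of different chain length take the first step. Acadm, the medium-chain enzyme, read 10.78, 10.78 and 10.87 on deficient arrays and 10.40, 10.45 and 10.26 on controls. The groups did not overlap, and its difference of 0.44 (SE 0.11, 95% confidence interval 0.18 to 0.69) had the smallest p of the members (limma adjusted p = 0.123). Acadl, the long-chain enzyme, read 10.17, 10.34 and 10.79 on deficient arrays and 10.09, 10.11 and 9.95 on controls, a difference of 0.38 (limma adjusted p = 0.308) with groups just apart, and of 0.21 without deficient replicate 3. Acadvl, for very long chains, and Acads, for short chains, differed by 0.06 and 0.02, with intervals from -0.28 to 0.41 and from -0.37 to 0.41. The 4 dehydrogenases thus had differences of 0.02 to 0.44, and the overlap of the groups differed among them as well.

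The later steps lay closer together. Hadha and Hadhb, the subunits of the trifunctional protein for long chains, had differences of 0.23 and 0.16. Hadh, the hydroxyacyl-CoA dehydrogenase of shorter chains, averaged 13.15 ± 0.11 on deficient arrays and 13.08 ± 0.16 on controls (SD, n = 3 each), and Acaa2, the thiolase, 10.18 ± 0.15 and 9.97 ± 0.13. Eci1 and Decr1, which rearrange the double bonds of unsaturated fatty acids, had differences of 0.10 and 0.08. In all 6 the groups overlapped. In all 6 deficient replicate 3 was the highest array, at 9.75 for Hadha, 10.69 for Hadhb, 10.35 for Acaa2, 9.79 for Eci1 and 10.66 for Decr1, while for Hadh it read 13.261, hardly above control replicate 2 at 13.259. The probe set used for Hadh differed by 0.06. Its other 2 probe sets differed by 0.24, with all deficient arrays above all controls, and by 0.34, with groups that overlapped. The other probe sets of Acaa2 differed by 0.18 and 0.72, those of Hadhb by 0.06 and -0.20, and that of Decr1 by -0.17. Over the members, 24 of 29 other probe sets had the sign of the one used. The remaining 5, in 4 members, had the opposite sign.

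The electron transfer flavoprotein takes electrons from the dehydrogenases and hands them to ubiquinone. Its alpha subunit, Etfa, whose window is printed above, read 10.763, 10.786 and 11.004 on deficient arrays and 10.567, 10.208 and 10.671 on controls. Etfdh, the ubiquinone oxidoreductase, read 9.68, 9.88 and 10.17 on deficient arrays and 9.43, 9.49 and 9.64 on controls. For both the groups did not overlap, with differences of 0.37 and 0.39 (limma adjusted p = 0.277 and 0.256). For Etfa the difference was 0.15 with the Gapdh gap as a covariate, 0.18 without control replicates 1 and 2 together and 0.23 without control replicate 2 alone, and for Etfdh it was 0.25 without deficient replicate 3. Etfb, the beta subunit, read 10.32, 10.23 and 10.75 on deficient arrays and 10.32, 10.24 and 10.20 on controls, so that deficient replicate 3 alone stood clear of the controls and deficient replicates 1 and 2 lay at their level. Over the 18 mitochondrial members the differences ran from -0.08 to 0.44 with a median of 0.21, 17 were above 0, and in 5 (27.8%) the deficient arrays lay above all controls, against 11.5% of all genes and 14.5% of those at or above the median level. The median was 0.11 without deficient replicate 3.

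The peroxisomal members had a median difference of 0.39 over 6 genes. In 3 of the 6 the deficient arrays lay above all controls, against 11.5% of all genes and 14.5% of those at or above the median level. Ehhadh, the bifunctional enzyme and a classical PPARalpha target, read 9.48, 9.75 and 10.22 on deficient arrays and 9.15, 9.19 and 9.31 on controls. Its difference was 0.60 (SE 0.19, 95% confidence interval 0.17 to 1.03, limma adjusted p = 0.182), with the deficient arrays spread over a wider range than the controls. Hsd17b4, the second bifunctional enzyme, which serves branched chains, read 10.05, 10.10 and 10.28 on deficient arrays and 9.99, 9.64 and 9.72 on controls, a difference of 0.36. Decr2, the peroxisomal reductase for unsaturated chains, read 7.43, 7.54 and 8.04 on deficient arrays and 7.14, 7.17 and 7.41 on controls, a difference of 0.43. In these 3 genes the deficient arrays lay above the controls. Without deficient replicate 3 the differences of Ehhadh and Decr2 were 0.40 and 0.25. That of Decr2 was 0.29 with the Gapdh covariate and 0.26 without control replicates 1 and 2, and that of Hsd17b4 was 0.22 with array weights.

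Acaa1b, a peroxisomal thiolase, had the largest difference of the 6 at 0.64 (SE 0.24, limma adjusted p = 0.242). It read 8.74, 9.07 and 9.63 on deficient arrays and 8.34, 8.81 and 8.37 on controls, so deficient replicate 1 lay below control replicate 2, and without deficient replicate 3 the difference was 0.40. A pair of probe sets shared with its near-identical relative Acaa1a differed by 0.38 and 0.24, and these cannot tell the paralogs apart. The probe set paired with Acaa1a alone differed by 0.33, with all deficient arrays above all controls. Whether a probe set paired with 1 of the paralogs also reads the other was not tested. Pex11a, which divides peroxisomes and is itself a PPARalpha target, read 8.58, 8.58 and 8.93 on deficient arrays and 8.60, 8.70 and 8.49 on controls, and overlapped. Eci2, an isomerase found in peroxisomes and mitochondria, read 8.55, 8.44 and 8.86 on deficient arrays and 8.78, 8.74 and 8.74 on controls, with a difference of -0.14. All 6 peroxisomal members were highest on deficient replicate 3, and without it their median difference was 0.27. No test of peroxisomal against mitochondrial members was made, and with 6 genes against 18, measured on the same 6 arrays, the medians of 0.39 and 0.21 are a description.

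**Figure D2:**
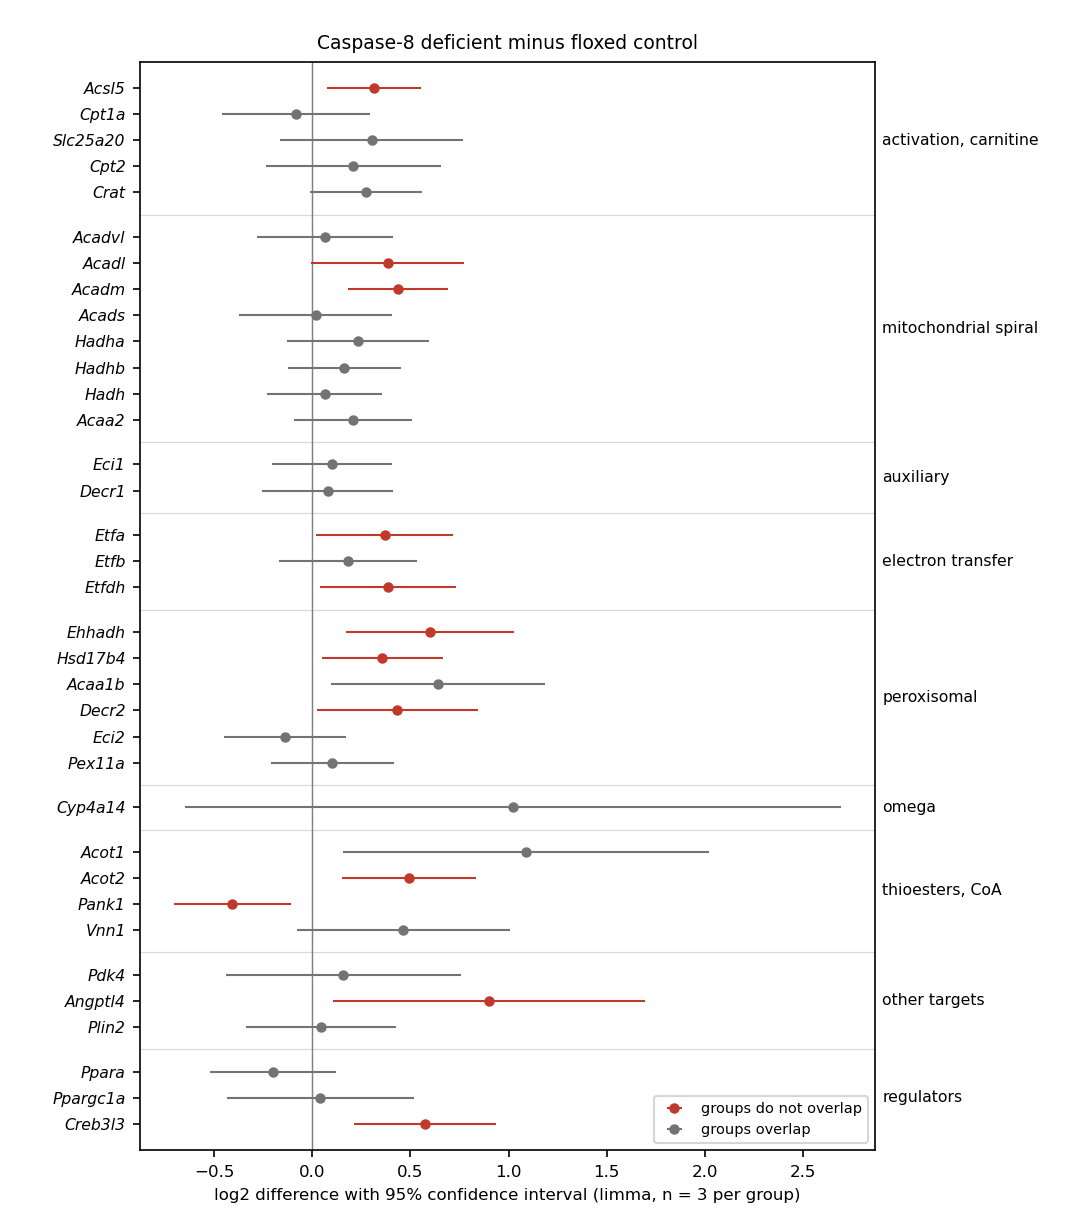
Log2 difference of each member, caspase-8 deficient minus floxed control, with its 95% confidence interval from limma (n = 3 arrays per group). Red points mark the 12 members whose groups did not overlap, 11 with the deficient arrays higher and Pank1 with them lower; the widest interval is that of Cyp4a14, from -0.65 to 2.70.

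The Cyp4a enzymes hydroxylate the far end of fatty acids and are among the most strongly induced PPARalpha targets in rodent liver and kidney. Cyp4a14 read 6.23, 3.29 and 3.11 on deficient arrays and 3.15, 3.27 and 3.14 on controls. Deficient replicate 1 alone was high, the other 2 deficient arrays lay just above and just below the range of the controls, and the difference of 1.02 (SE 0.72, limma adjusted p = 0.515) was 0.01 without that array. On the same array the mean of 14 kidney markers was 6.07, against 4.25 to 4.33 on the other deficient arrays and 4.20 to 4.38 on controls, and 13 of the 14 were highest there, 8 of them by over 1 log2 unit. Umod, the urinary protein of the kidney tubule, read 7.87 there and 2.69 to 3.55 on the other 5 arrays. The mean of 10 endothelial markers was 6.82 there, against 4.28 to 4.30 on the other deficient arrays and 4.07 to 4.42 on controls. The part of these markers in the Cyp4a14 value was not tested.

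Cyp4a10 was read with Cyp4a31 by a probe set that the annotation pairs with both genes, so the 2 cannot be separated. That probe set read 6.60, 5.48 and 6.12 on deficient arrays and 4.48, 4.94 and 4.54 on controls, a difference in means of 1.41 that was not among the genes tested. Here all 3 deficient arrays lay above the controls, unlike for Cyp4a14. The probe set paired with Cyp4a31 alone read 5.113, 4.004 and 3.397 on deficient arrays and 3.572, 3.226 and 3.711 on controls, with groups that overlapped. Deficient replicate 1 was the highest array for the shared probe set and for that of Cyp4a31 alone. The part of the kidney and endothelial markers in these values was not tested.

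**Figure D3:**
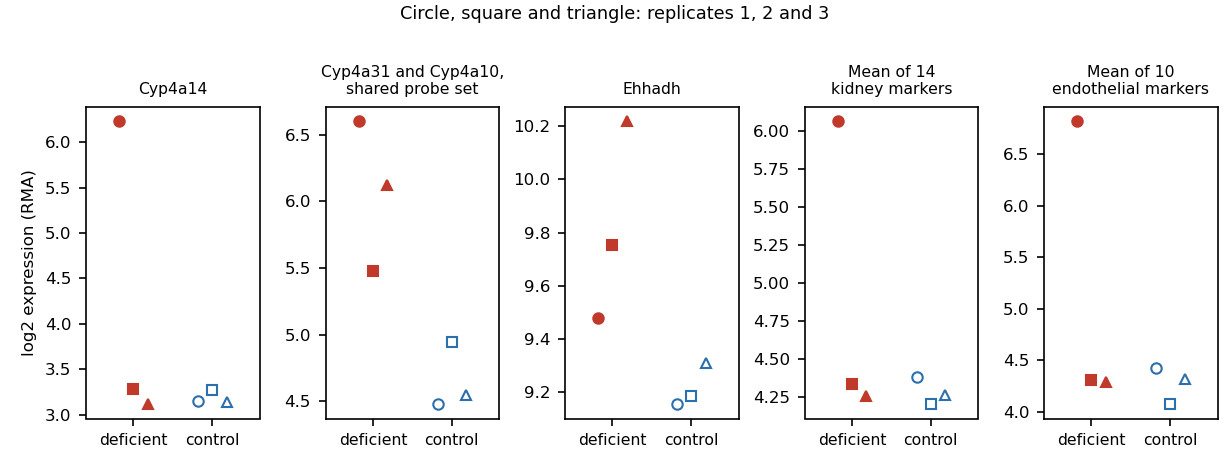
Log2 expression on each array for Cyp4a14, for the probe set shared by Cyp4a31 and Cyp4a10, for Ehhadh, and as the mean of 14 kidney and of 10 endothelial markers, with caspase-8 deficient arrays left (filled) and floxed control arrays right (open); each panel has its own axis, which does not start at 0. Deficient replicate 1 (circle) was the high array for Cyp4a14 at 6.23 and for both marker lists at 6.07 and 6.82, while for Ehhadh it was the lowest deficient array at 9.48. For the shared probe set it was also the highest array, at 6.60, with the other deficient arrays above the controls too.

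Acyl-CoA thioesterases release free fatty acid and CoA, and Acot1 (cytosol) and Acot2 (mitochondria) are neighbouring PPARalpha targets of closely similar sequence. Acot2 read 7.56, 7.39 and 7.84 on deficient arrays and 7.10, 7.24 and 6.97 on controls, a difference of 0.49 (SE 0.15, limma adjusted p = 0.175) with groups apart. Its second probe set differed by 0.70. Acot1 had the largest difference of all members, 1.09 (SE 0.40, 95% confidence interval 0.16 to 2.02, limma adjusted p = 0.242). It read 5.437, 5.415 and 6.427 on deficient arrays and 4.508, 5.500 and 4.002 on controls, and the groups overlapped through control replicate 2. The difference was 1.79 with the Gapdh covariate and 1.76 without control replicates 1 and 2. A probe set shared by both genes read 5.66, 5.50 and 6.22 on deficient arrays and 4.86, 5.14 and 4.63 on controls, with groups apart.

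Pank1, a pantothenate kinase that starts CoA synthesis, went the other way. It read 8.11, 8.25 and 7.93 on deficient arrays and 8.53, 8.61 and 8.38 on controls, so every deficient array lay below every control. The difference was -0.41 (SE 0.13, 95% confidence interval -0.71 to -0.11, limma adjusted p = 0.187), and its other 3 probe sets differed by -0.55, -0.31 and 0.05. Vnn1, the pantetheinase that recovers pantothenate from CoA breakdown, read 9.95, 10.61 and 10.93 on deficient arrays and 10.19, 9.96 and 9.96 on controls. Deficient replicates 2 and 3 were above the controls and replicate 1 was not, at a difference of 0.46 (limma adjusted p = 0.371), which was 0.74 without deficient replicate 1 and 0.25 without deficient replicate 3.

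Of the other PPAR targets, Angptl4, a secreted inhibitor of lipoprotein lipase, read 8.41, 9.06 and 9.99 on deficient arrays and 8.13, 8.24 and 8.38 on controls. The groups were just apart, the deficient arrays were spread over more than 1 log2 unit, and the difference was 0.90 (SE 0.34, limma adjusted p = 0.252). It was 0.48 without deficient replicate 3, and a second probe set, with a mean level of 2.24 over the 6 arrays, differed by 0.20. Pdk4, the kinase that turns off pyruvate dehydrogenase when fat is burnt, read 7.80, 7.96 and 7.95 on deficient arrays and 7.73, 7.18 and 8.33 on controls, so the controls bracketed the deficient arrays. Plin2, which coats lipid droplets and whose window is printed above, averaged 9.44 ± 0.15 on deficient arrays and 9.39 ± 0.28 on controls (SD, n = 3 each), a difference of 0.04.

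Among the regulators, Creb3l3, a membrane-bound transcription factor of liver and gut that works with PPARalpha, had the largest difference of the 3. It read 11.63, 11.42 and 11.52 on deficient arrays and 10.99, 10.65 and 11.20 on controls, a difference of 0.57 (SE 0.16, 95% confidence interval 0.21 to 0.94, limma adjusted p = 0.145) with groups apart. The difference was 0.32 with the Gapdh difference as a covariate and 0.32 when control replicates 1 and 2 were both left out. Ppara itself read 8.37, 7.96 and 7.99 on deficient arrays and 8.31, 8.38 and 8.23 on controls, a difference of -0.20 (95% confidence interval -0.52 to 0.12), with deficient replicate 1 among the controls. Its other probe sets differed by -0.11 and -0.06. Ppargc1a, the coactivator of mitochondrial genes, averaged 8.71 ± 0.38 on deficient arrays and 8.67 ± 0.22 on controls (SD, n = 3 each) and overlapped. The other Ppargc1a probe sets differed by 0.26, -0.14, 0.20 and -0.04.

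Other genes of the pathway, in 6 lists with 92 of 102 entries measured, gave 0 that passed limma at an adjusted p of 0.05, with 22 higher (23.9%, against 8.12% of all genes) and 4 lower (against 8.53%) at an unadjusted p under 0.05. Their median difference was 0.16, and 59 of 92 were above 0 (64.1%, against 53.9% of all genes). Among 23 further peroxisomal genes the median was 0.33, 18 were above 0 (78.3%, against 53.9% of all genes) and 11 had deficient arrays above all controls (47.8%, against 11.5%). Acad11, an acyl-CoA dehydrogenase family member, differed by 0.62 (limma adjusted p = 0.094), Phyh, the phytanoyl-CoA hydroxylase, by 0.54, and Scp2, which encodes a sterol carrier and thiolase, by 0.47. Pecr, a peroxisomal enoyl-CoA reductase, differed by -0.54. Among 20 further mitochondrial and activation genes the median was 0.07 and 12 were above 0, with Acsl3, an acyl-CoA synthetase of lipid droplets, at 1.10 (limma adjusted p = 0.0758) and Pccb, a propionyl-CoA carboxylase subunit, at 0.80. Slc22a5, the carnitine transporter, stood at 0.38, and the thioesterase Acot9 at 0.62.

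Of 16 genes of uptake and droplets, the droplet coat Plin3 differed by 0.55, Cidec by 0.79, the fatty acid binding protein Fabp1 by 0.46 and the triglyceride lipase Pnpla2 by 0.35. Of 15 PPAR-associated genes, Cyp4f14 differed by 0.49, the epoxide hydrolase Ephx2 by 0.54, Mgst3 by 0.47 and the desaturase Fads2 by -0.61. The 3 ketogenesis genes measured, Bdh1, Oxct1 and Acat1, differed by -0.15, 0.07 and -0.01. The 15 receptors and coregulators had a median of -0.01, with Pparg at 0.51, Ppard at -0.31, Ncoa1 at -0.29 and Ppargc1b at -0.42. All of these lists were read on the same 6 arrays.

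**Figure D4:**
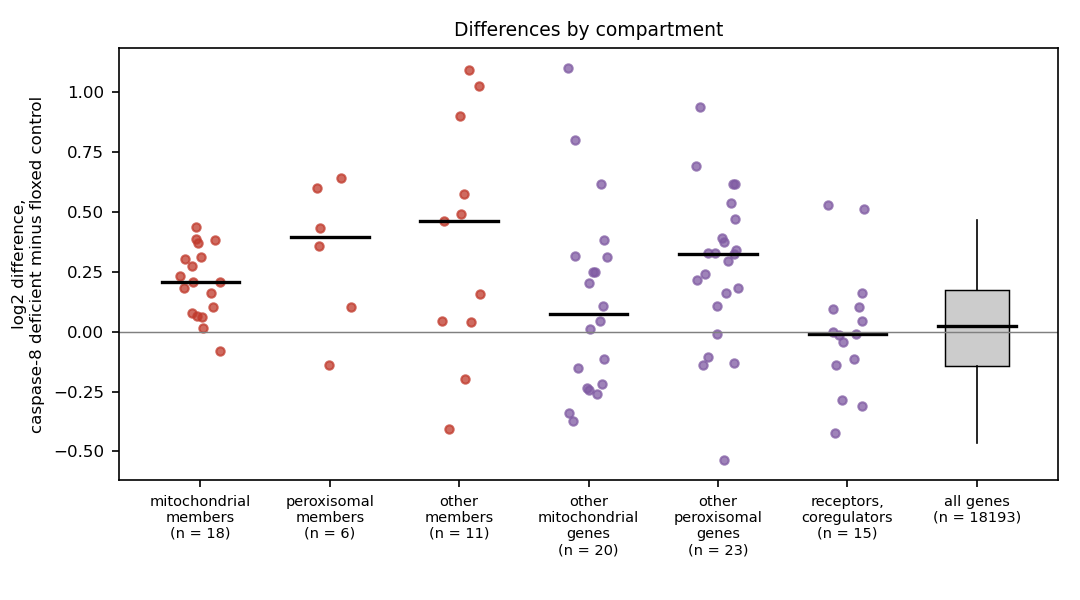
Log2 differences, caspase-8 deficient minus floxed control, of the members (red) and of other pathway genes (purple), 1 point per gene with the median as a bar, beside all 18193 genes (box from the 25th to the 75th percentile, -0.14 to 0.17, whiskers from the 5th to the 95th percentile, -0.47 to 0.47). The medians are 0.21 for 18 mitochondrial members, 0.39 for 6 peroxisomal members, 0.46 for 11 other members, 0.07 and 0.33 for further mitochondrial and peroxisomal genes, and -0.01 for receptors and coregulators.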

How the data were processed

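Total RNA of intestinal epithelial cells was labelled with biotin and hybridised to Affymetrix arrays, per the labels' protocols. The authors deposited log2 expression values, for which the submitters' processing notes name RMA, a method that summarises the probes of a set over all arrays, without a version. They span 1.13 to 14.1 and carry no detection calls. RMA compresses changes of dim genes. The number of arrays limits the precision.

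Groups and replicate numbers came from the titles. Of 45101 probe sets, 34945 were paired with 1 gene by GEO's platform annotation, 932 with several and 9160 with none, and 64 were controls. The brightest single-gene probe set stood for each of 18193 genes. Differences were tested with limma 3.58.1 (lmFit, eBayes, group as the only term, two-sided) in R 4.3.3, with Benjamini-Hochberg adjustment over the 18193 genes at 0.05. No filter on dim genes was applied. Each p-value rests on the spread within the groups of 3 arrays, which may be partly technical. That spread is pooled over both groups and drawn by eBayes toward a value estimated from all genes. On simulated data for this comparison with 18193 genes and 200 changed, 68.4% of changes of 1 and 97.7% of changes of 2 on the log2 scale were recovered, with 5.37% and 5.30% of calls false. Whether these shares of recovered changes and false calls hold for the arrays of this study was not tested. Smaller changes, the size of most members' differences, were not simulated. The members and lists were chosen with earlier results of these data known. All members are named, and of each further pathway list the genes that passed or up to 4 with the smallest p. Of the markers, Umod was named after its values were seen. Tables were made with Python 3.11.15 and pandas 2.3.3.

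Same-numbered arrays of the groups had deviations that correlated at 0.08, 0.10 and -0.007, so the numbers were not taken as pairs.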

Additional observations from a re-analysis of the deposited data

How the results depend on the processing

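No member passed in the fit given or in any of the 16 alternatives other than array weights. Array weights called 1406 of all 18193 genes, against 141 without them, so calls rose among genes in general. With these weights 4 of the 35 members passed, all higher: Acadm, Ehhadh, Acaa1b and Creb3l3, at 0.42, 0.61, 0.73 and 0.48 (limma adjusted p = 0.0321, 0.0381, 0.0417 and 0.0448, against 0.123 to 0.242 without weights). All genes past the threshold numbered 298 without dim genes, 252 with a variance trend and robust prior, 36 with the Gapdh covariate and 5 without control replicates 1 and 2 together. Leaving out 1 array gave 18 (without deficient replicate 3) to 251 (without deficient replicate 1). It gave 23 without deficient replicate 2, and 23, 31 and 56 without control replicates 1, 2 and 3. With the replicate number as a block, 113 genes and 0 members passed, and no member's call changed. Of the 92 other pathway genes, 14 passed with array weights, 4 without dim genes and 4 with the trend and robust prior. With median centring 1 passed, as did 1 without probe sets ending in _x_at or _s_at. When 1 array was left out, 0 to 2 passed (2 without deficient replicate 1 and 1 without control replicate 3, otherwise 0).

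The median difference lay between 0.11 and 0.27 for mitochondrial and between 0.27 and 0.48 for peroxisomal members over all alternatives. Without control replicates 1 and 2, the deficient arrays of 25 members lay above control replicate 3, the only control left, against 26.9% of all genes. Every difference given for that setting rests on this 1 control array, which had the lowest level of 16 members. With 1 array left out, members with deficient arrays above all controls numbered 12 to 18, against 15.3% to 18.6% of all genes. The 18 were without control replicate 2 (16.6% of all genes). Members with a difference above 0 numbered 26 to 31 with 1 array left out, against 52.1% to 54.6% of all genes. Both counts were added after the data had been seen.

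Of 558 member values under alternatives, 26 had the opposite sign, in 10 members, none of them past the threshold. Cpt1a stood at 0.055 with array weights, 0.13 with the Gapdh covariate and 0.047 without control replicates 1 and 2, and between -0.19 and 0.091 when 1 array was left out (opposite sign without control replicate 2). Acadvl stood at -0.0095 with quantile normalisation, and between -0.045 and 0.17 when 1 array was left out (opposite sign without deficient replicate 3, control replicate 3). Acads stood at -0.0053 with quantile normalisation, and between -0.13 and 0.14 when 1 array was left out (opposite sign without deficient replicate 3, control replicate 1, control replicate 3). Hadh lay between -0.0083 and 0.15 when 1 array was left out (opposite sign without control replicate 3). Eci1 stood at -0.026 with array weights. Decr1 stood at -0.044 with the mean of probe sets and -0.11 with array weights, and between -0.022 and 0.20 when 1 array was left out (opposite sign without deficient replicate 3). Pex11a lay between -0.013 and 0.16 when 1 array was left out (opposite sign without deficient replicate 3). Pdk4 stood at -0.42 with the Gapdh covariate and -0.43 without control replicates 1 and 2, and between -0.13 and 0.45 when 1 array was left out (opposite sign without control replicate 2). Plin2 stood at -0.054 with array weights, and between -0.11 and 0.16 when 1 array was left out (opposite sign without deficient replicate 1, control replicate 3). Ppargc1a stood at -0.16 with array weights, and between -0.14 and 0.24 when 1 array was left out (opposite sign without deficient replicate 3, control replicate 3). The cause was not tested. The absence of detection calls leaves dim genes such as Cyp4a14 without a known floor.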
